A study of Homo sapiens with 6 samples.

Results

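miR-221 and miR-222 come from 2 neighbouring precursors on chromosome X, and their 4 mature strands (hsa-miR-221-3p, hsa-miR-221-5p, hsa-miR-222-3p and hsa-miR-222-5p) were followed in A549 cells with and without the MIR21 locus. The members were taken by name, 4 of 2588 mature miRNAs in the deposited table, with 1 row for each. A549 is an established cell line of a human lung adenocarcinoma. 3 libraries were made from parental A549 cells with an intact MIR21 locus (Ctrl) and 3 from A549 cells in which Cas9 and a pair of guide RNAs had deleted it (MIR21-KO). All cells grew in DMEM with serum and were harvested 48 h after seeding, with no other agent. The study describes its knockout cells as single-cell clones, so properties of a clone and the loss of MIR21 cannot be told apart in these groups. The labels do not say whether replicates were separate cultures, so p-values measure the spread between these libraries, which may be technical.

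Both 3p strands are the guide strands that Argonaute mostly keeps, while the 5p strands are the passenger strands that are mostly degraded. The 3p strands share their seed, the bases at the 5′ end that pair with target mRNAs, and so they share targets. Among these are CDKN1B and CDKN1C, inhibitors of cyclin-dependent kinases, the receptor KIT and the protease inhibitor TIMP3. In lung cancer cells the cluster is known as oncogenic and as driven by the receptor MET through AP-1. TIMP3 is also a known target of miR-21-5p.

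The mature sequences from RefSeq (GRCh38.p14) are shown with the seed, bases 2 to 8, in capitals, because the seed is what makes the 3p strands one family. A sequence was found for 3 of the 4 members, all but miR-221-5p.
miR-221-3p: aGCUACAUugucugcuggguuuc
miR-222-3p: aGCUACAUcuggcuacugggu
miR-222-5p: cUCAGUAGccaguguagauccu
The 3p strands shared their first 8 bases and differed at 10 of the 21 positions compared in register, so a full-length read of one cannot be taken for the other. In an alignment that allowed gaps, 18 bases were identical. Among the human mature sequences of the RefSeq table, which holds 2281 of the 2588 names in the data, no other carried the seed GCUACAU and none shared the seed of miR-222-5p. The remaining names could not be searched. miR-221-3p is 23 bases long (chrX:45746180-45746202, minus strand), miR-222-3p 21 (chrX:45747036-45747056) and miR-222-5p 22 (chrX:45747073-45747094).

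The hairpins of both precursors are shown with the 3p strand in capitals, to set the strands in their context.
MIR221: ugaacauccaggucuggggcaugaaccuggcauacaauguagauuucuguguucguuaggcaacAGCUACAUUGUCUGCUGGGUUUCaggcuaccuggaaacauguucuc
MIR222: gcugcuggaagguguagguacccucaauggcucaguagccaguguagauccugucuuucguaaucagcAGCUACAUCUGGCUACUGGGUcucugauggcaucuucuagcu
Each hairpin is 110 bases long, at chrX:45746157-45746266 for MIR221 and chrX:45747015-45747124 for MIR222, both on the minus strand, with 748 bases between them. In GENCODE 29 (GRCh38, the build the submitters list as hg38) both lie in the intron between exons 1 and 2 of the transcript MIR222HG-201. Its gene, MIR222HG, is a long non-coding RNA gene at chrX:45745211-45770274 on the same strand. The other transcript listed, MIR222HG-202 (chrX:45768380-45770269), ends upstream of both hairpins. MIR221 ends 56 bases before exon 2 of MIR222HG-201 begins, and neither hairpin overlaps an exon of MIR222HG.

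The libraries held 5577287 to 9768152 miRNA reads, recovered from the deposited values, which are reads divided by 1 TMM scaling factor per library. miR-21-5p, the targeted miRNA, made up 65.5% to 69.4% of reads in Ctrl and 0.0156% to 0.0254% in MIR21-KO, so the groups matched their labels. The first principal component of 601 miRNAs, computed without miR-21 and without the members, held 72.1% of the variance and parted the libraries across the groups. Ctrl replicates 1 and 2 and MIR21-KO replicate 3 (the first library set) formed one side, and the second library set held Ctrl replicate 3 with MIR21-KO replicates 1 and 2. The labels give no batch that matches these sets. The paper states that small RNA libraries were made with a NEXTflex kit or by Novogene, and sequenced in Dresden or at Novogene. It does not say which library took which route, so whether these routes match the sets was not tested. Of the 10 miRNAs listed as markers of liver, blood, neuron, muscle and fibroblasts, 5 reached 1 or more in 3 or more libraries and so were tested, and the list summed to 262 to 863 in Ctrl and 446 to 1362 in MIR21-KO. The largest of these were miR-143-3p of fibroblasts and smooth muscle, with a mean of 497 in Ctrl and 706 in MIR21-KO, and miR-122-5p of liver, with 81.8 and 25.6. The red cell marker miR-451a averaged 19.9 in Ctrl, where it reached 41.6 in replicate 2, and 5.34 in MIR21-KO. The muscle marker miR-1-3p averaged 14.3 and 33.6 in the same order, and miR-145-5p 5.53 and 9.55. The other 5, among them the blood markers miR-142-3p and miR-223-3p and the neuronal miR-124-3p, had group means of at most 0.363. The part of these markers in the results on the members was not tested. The epithelial miR-200 family summed to 1374 to 2171 in Ctrl and 879 to 1269 in MIR21-KO, so epithelial miRNAs were present in all 6 libraries. Most of this sum was miR-200b-3p, with a mean of 1496 in Ctrl and 715 in MIR21-KO. In the same order miR-200c-3p averaged 42.8 and 73.0, and the scarce miR-141-3p 1.43 and 0.836. As in any bulk sample, fewer cells with a miRNA and less of it per cell cannot be told apart.

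miR-221-3p and miR-222-3p were among the more abundant miRNAs of A549 cells and stood at like levels, with the passenger strand of miR-221 well below them and that of miR-222 far lower still. By value, miR-221-3p held places 15 to 29 in the single libraries and miR-222-3p places 13 to 35, among 868 to 1262 miRNAs with at least 1 read. miR-221-5p held places 61 to 87 and miR-222-5p places 276 to 394. Mature miRNAs have nearly the same length, so values of different miRNAs are compared as reads, and any unequal capture of single miRNAs in library preparation was not tested. None of the 4 members passed an adjusted p of 0.05 between MIR21-KO and Ctrl in the limma fit of 607 miRNAs on log2(value + 1), in which 5 miRNAs (0.824%) passed, all lower in MIR21-KO. At an unadjusted p under 0.05 the fit held 41 miRNAs higher and 27 lower and 0 of the 4 members. edgeR and DESeq2 on the reads called 0 members after adjustment and 1 before it, hsa-miR-222-5p. For edgeR and DESeq2 the share of all miRNAs at an unadjusted p under 0.05 is not given here.

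The guide strand hsa-miR-221-3p had values of 4142, 3057 and 5207 in Ctrl replicates 1 to 3 and of 6054, 4975 and 3882 in MIR21-KO replicates 1 to 3. The groups overlapped, since MIR21-KO replicate 3 lay below Ctrl replicates 1 and 3. The values rested on 11311 to 36900 reads in Ctrl and 29859 to 84054 in MIR21-KO. Ctrl averaged 4136 ± 1075 (SD, n = 3) and MIR21-KO 4971 ± 1086 (SD, n = 3). Its log2 change was 0.28 (standard error 0.38, 95% interval -0.61 to 1.16, limma, Benjamini-Hochberg adjusted p = 0.790).

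The other guide strand, hsa-miR-222-3p, had values of 7497, 3859 and 3808 in Ctrl and of 3514, 2724 and 4743 in MIR21-KO. Ctrl replicate 1 was far above the other Ctrl libraries, and MIR21-KO replicate 3 lay above Ctrl replicates 2 and 3. Between 14276 and 48790 reads stood behind each value. Ctrl averaged 5055 ± 2115 (SD, n = 3) and MIR21-KO 3660 ± 1017 (SD, n = 3). The log2 change was -0.43 (standard error 0.43, 95% interval -1.43 to 0.58, adjusted p = 0.719 from limma). These intervals leave room for a change of either sign in both guide strands.

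The passenger strand hsa-miR-221-5p had values of 831, 646 and 652 in Ctrl and of 622, 495 and 643 in MIR21-KO. Each MIR21-KO library was lower than any Ctrl library, but the gap was only that between 643 in MIR21-KO replicate 3 and 646 in Ctrl replicate 2. Ctrl averaged 709.8 ± 105 (SD, n = 3) and MIR21-KO 587 ± 80.2 (SD, n = 3), a log2 change of -0.27 (standard error 0.39, 95% interval -1.19 to 0.64, adjusted p = 0.792 from limma).

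The scarce passenger strand hsa-miR-222-5p had values of 14.7, 11.1 and 11.3 in Ctrl and of 6.19, 5.19 and 8.32 in MIR21-KO. These rested on 55, 41 and 80 reads in Ctrl and 86, 72 and 64 reads in MIR21-KO. Each MIR21-KO library was lower than any Ctrl library, Ctrl averaging 12.4 ± 2.03 (SD, n = 3) and MIR21-KO 6.57 ± 1.60 (SD, n = 3). The log2 change of -0.83 on the log2(value + 1) scale (standard error 0.39, 95% interval -1.74 to 0.08) had an adjusted p of 0.481 from limma, the lowest of the members. Of all 607 miRNAs tested, 6.59% likewise had every MIR21-KO library below every Ctrl library, against 2 of the 4 members, both passenger strands.

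**Figure D1:**
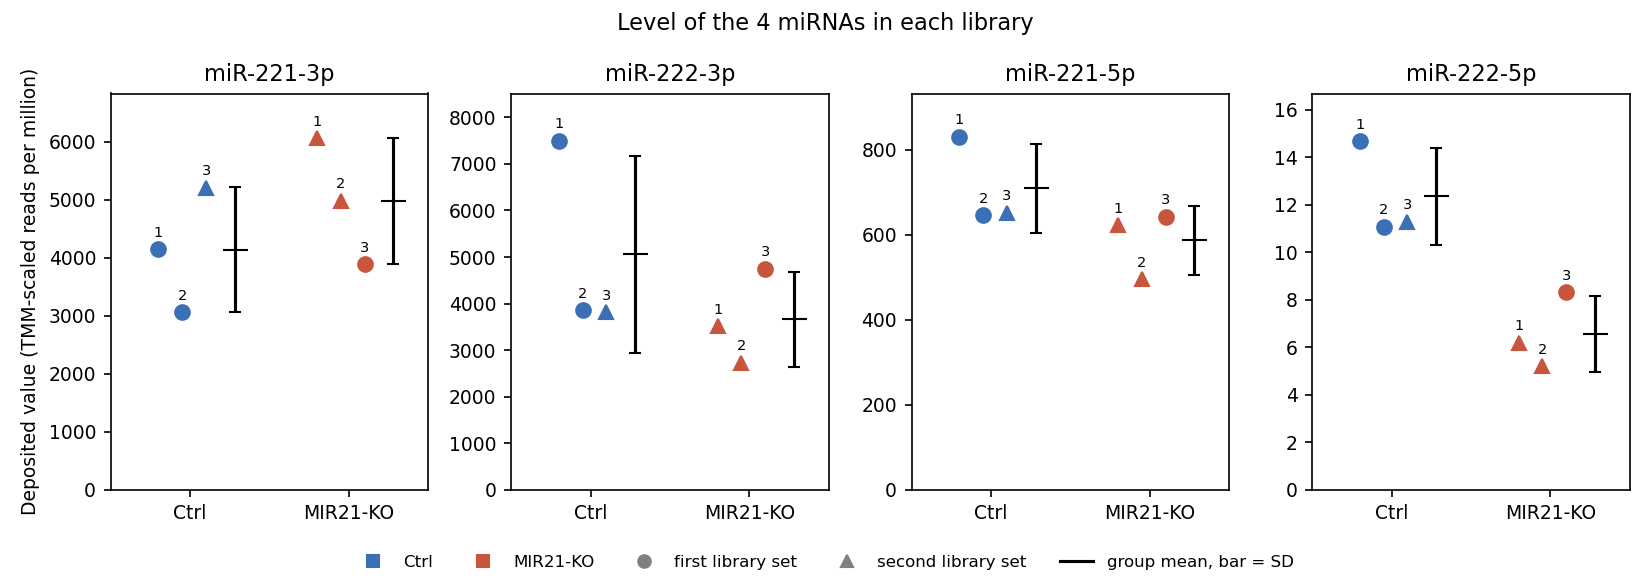
Deposited value (TMM-scaled reads, linear axes from 0) of the 4 miRNAs in Ctrl (blue) and MIR21-KO (red), with replicate numbers at the points, circles for the first and triangles for the second library set, and the group mean with its SD beside them. miR-221-3p and miR-222-3p overlap between the groups, whereas the MIR21-KO libraries of miR-221-5p (495 to 643) and miR-222-5p (5.19 to 8.32) lie below the Ctrl libraries (646 to 831 and 11.1 to 14.7).

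The members differed between the library sets in opposite directions. Averaged within groups, the second set lay above the first by 0.52 on the log2(value + 1) scale for miR-221-3p, whereas it lay below the first for miR-222-3p (difference -0.56), miR-221-5p (-0.19) and miR-222-5p (-0.32). These are modest beside the rest of the data, since 46.1% of the 607 miRNAs differed by more than 1 between the sets in either direction. From Ctrl to MIR21-KO, the log2 difference within the first set was 0.13 for miR-221-3p, -0.18 for miR-222-3p, -0.19 for miR-221-5p and -0.56 for miR-222-5p. Within the second set it was 0.076, -0.30, -0.23 and -0.88 in the same order. Each member thus had the same sign in both sets, with 1 library on one side of each of these differences. With the library set as a term in the limma fit, miR-222-5p had a log2 change of -0.72 (standard error 0.30, 95% interval -1.36 to -0.08, adjusted p = 0.110). No member passed in this fit, which called 18.1% of the 607 miRNAs, 71 higher and 39 lower.

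The direction of each change rested on the scaling of the libraries, though for miR-222-3p, miR-221-5p and miR-222-5p only scaling to the total of all miRNAs turned it. miR-21-5p was most of the Ctrl reads, so giving every library the same sum over all miRNAs (total scaling) put all 4 members higher in MIR21-KO, with a log2 change of 1.66 for miR-221-3p (adjusted p = 0.0284 from limma), 0.96 for miR-222-3p, 1.11 for miR-221-5p (adjusted p = 0.0439) and 0.41 for miR-222-5p. Under this scaling 33.9% of the 626 miRNAs that then met the filter passed as higher. The median of all miRNAs tested moved with it, from 0.24 under the deposited scaling to 1.31. Relative to that median, miR-221-3p stood close to it under the deposited scaling and above it under total scaling, while miR-222-3p, miR-221-5p and miR-222-5p stood below it under both. With the total without miR-21, median-of-ratios factors and median centring, the log2 change of miR-222-3p was -0.68, -0.59 and -0.72. In the same order that of miR-221-5p was -0.53, -0.43 and -0.57, and that of miR-222-5p -1.06, -0.97 and -1.09. That of miR-221-3p was 0.02, 0.12 and -0.02, and no member passed. With the total without miR-21 as the base, the MIR21-KO libraries of miR-222-3p were lower than any Ctrl library, as were those of both passenger strands. With the libraries centred on the median miRNA, the values of miR-221-5p overlapped between the groups and those of miR-222-5p did not. For these scalings the share of all miRNAs without overlap is not given here, so these separations have no background.

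**Figure D2:**
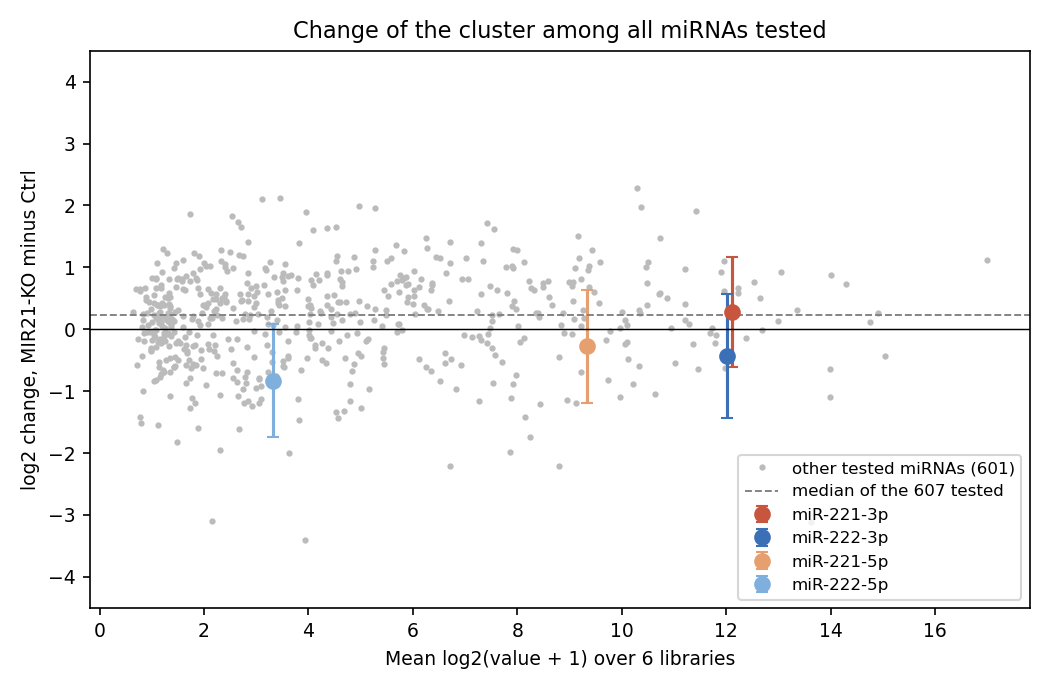
Log2 change from Ctrl to MIR21-KO against mean log2(value + 1) over the 6 libraries, for the 4 members with 95% intervals from limma and for 601 other tested miRNAs (grey), with miR-21-5p and miR-21-3p below the lower limit of the axis. The points of the members lie from -0.83 to 0.28, each interval reaches across 0, and the dashed line marks the median of all tested miRNAs at 0.24.

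Ratios within a library do not depend on the scaling. miR-221-3p over miR-222-3p, the ratio of the 2 guide strands, was 0.553, 0.792 and 1.37 in Ctrl, against 1.72, 1.83 and 0.819 in MIR21-KO. miR-222-3p was thus the more abundant guide strand in Ctrl replicates 1 and 2 and MIR21-KO replicate 3, and miR-221-3p in the other libraries, which are the library sets of the principal component. As a share of both guide strands, miR-221-3p ran from 35.6% to 64.6%, and the 95% Wilson intervals reached at most 0.608 percentage points to either side, so counting error was small beside this spread. Such intervals cover counting error only, since reads were not identified by molecule.

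Between the groups, the log2 ratio of the guide strands averaged -0.25 ± 0.66 (SD, n = 3) over Ctrl, against 0.45 ± 0.65 (SD, n = 3) over MIR21-KO, a difference of 0.70 (two-sided exact permutation test, p = 0.2, 0.4 after Benjamini-Hochberg adjustment over 4 such tests). With 3 libraries against 3 this exact test cannot go below p = 0.1. Within the first library set MIR21-KO lay above Ctrl by 0.31 on the log2 scale, and within the second by 0.38. Between the sets, within groups, the log2 ratio differed by 1.08, more than between the groups. The sets were read from the same libraries, so this difference is given with no test.

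The spread of this ratio was compared with that of other clusters. Among 57 pairs of neighbouring precursors on the same strand, at most 10000 bases apart and each with a strand whose mean value reached 10, the SD of the log2 ratio over the 6 libraries had a median of 0.82. That of miR-221-3p over miR-222-3p was 0.70, place 34 of 57 from the top. The pairs were set up after the values were seen, and each pair shares libraries with all others. For some precursors the strand used was the scarcer one, such as miR-34c-3p and miR-425-3p. The mean log2 3p over 5p ratio was -7.08 for miR-34c and -5.77 for miR-425. The ratio of 2 guide strands is thus set beside some ratios that involve a scarcer strand.

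Adding the passenger strands altered little. The strands of miR-221 summed to 4974, 3703 and 5859 in Ctrl, against 6677, 5471 and 4526 in MIR21-KO. Those of miR-222 summed to 7512, 3870 and 3819 in Ctrl, against 3521, 2729 and 4751 in MIR21-KO. Both sums overlapped between the groups.

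The sum of both guide strands, the members that carry the seed GCUACAU, had similar means in both groups under the deposited scaling. It was 11639, 6916 and 9015 in Ctrl, against 9569, 7700 and 8625 in MIR21-KO, with every MIR21-KO value between the lowest and the highest Ctrl value. Ctrl averaged 9190 ± 2366 (SD, n = 3) and MIR21-KO 8631 ± 935 (SD, n = 3), which is 93.9% of Ctrl, with a difference of -0.06 in the mean log2 sum (two-sided exact permutation test, p = 0.9, also 0.9 after adjustment). Without Ctrl replicate 1 this difference was 0.12, without MIR21-KO replicate 2 it was 0.02, and under total scaling it was 1.32. With the total without miR-21, median-of-ratios factors or median centring it was -0.32, -0.22 or -0.36, so neither its direction nor its size can be given. The 4 members together made up 1.97%, 1.44% and 2.31% of the reads other than miR-21 in Ctrl and 1.63%, 1.57% and 1.28% in MIR21-KO, each with a 95% Wilson interval of at most 0.0177 percentage points to either side. The share averaged 1.91% ± 0.439 (SD, n = 3) over Ctrl, against 1.49% ± 0.188 (SD, n = 3) over MIR21-KO, and the groups overlapped (two-sided exact permutation test, p = 0.3, adjusted 0.4). As a share of all reads the order turned, to 0.612% in Ctrl and 1.49% in MIR21-KO, since miR-21-5p left the total.

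The precursors differed in how much of the passenger strand was found beside the guide strand. The 5p share of miR-221 was 16.7%, 17.4% and 11.1% in Ctrl, against 9.32%, 9.05% and 14.2% in MIR21-KO, with 95% Wilson intervals of at most 0.635 percentage points to either side. The 5p share of miR-222 was 0.196%, 0.286% and 0.296% in Ctrl, against 0.176%, 0.190% and 0.175% in MIR21-KO, with intervals of at most 0.0885 points to either side. The bias of miR-222 towards its 3p strand was thus far stronger in every library. Among the 152 miRNA names whose strands both had a mean value of 1 or more, miR-222 stood at place 3 by its mean log2 3p over 5p ratio and miR-221 at place 36, and 78 names had more of the 3p than of the 5p strand.

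The 3p over 5p ratio of miR-221 was 4.98, 4.73 and 7.98 in Ctrl, against 9.73, 10.0 and 6.03 in MIR21-KO. It was low in the first library set and high in the second, as was the ratio of the guide strands, and within each set MIR21-KO lay above Ctrl by 0.31 on the log2 scale. The log2 change of the ratio was 0.55 (standard error 0.49, 95% interval -0.61 to 1.71, adjusted p = 0.887 from limma over the 152 names, of which 0% were called and 4 had an unadjusted p under 0.05).

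The 3p over 5p ratio of miR-222 was 510.4, 348 and 337 in Ctrl, against 567, 525 and 570.0 in MIR21-KO. It did not follow the library sets, and each MIR21-KO library was higher than any Ctrl library, as for 2.82% of the 142 names with reads of both strands in every library. Its 5p strand rests on 41 to 86 reads per library, and the Wilson intervals of the 5p share overlapped for 7 of the 9 pairs of a Ctrl and a MIR21-KO library, all but those of Ctrl replicate 3 with MIR21-KO replicates 1 and 3. With 1 added to each value the log2 change was 0.40 (standard error 0.51, 95% interval -0.81 to 1.62, adjusted p = 0.887 from limma), and the groups then overlapped. The change was 0.0073 with 10 added and 0.60 without Ctrl replicate 1, so its size rested on these choices.

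The passenger strands kept another ratio to each other than the guide strands did. miR-221-5p over miR-222-5p was 56.6, 58.3 and 57.8 in the Ctrl libraries and 100.5, 95.3 and 77.3 in the MIR21-KO libraries. The Ctrl libraries of both sets stood close together, and each MIR21-KO library stood above them. How many other ratios of passenger strands part the groups in this way is not given here. The log2 ratio averaged 5.85 ± 0.022 (SD, n = 3) over Ctrl, against 6.50 ± 0.20 (SD, n = 3) over MIR21-KO, a difference of 0.65 (p = 0.1 by the two-sided exact permutation test, its minimum in this design, and 0.4 after adjustment). The difference was 0.43 within the first library set and 0.76 within the second. The ratio was computed after the values of the strands had been seen, and counting error on 41 to 86 reads of miR-222-5p is larger than the spread among the Ctrl libraries.

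**Figure D3:**
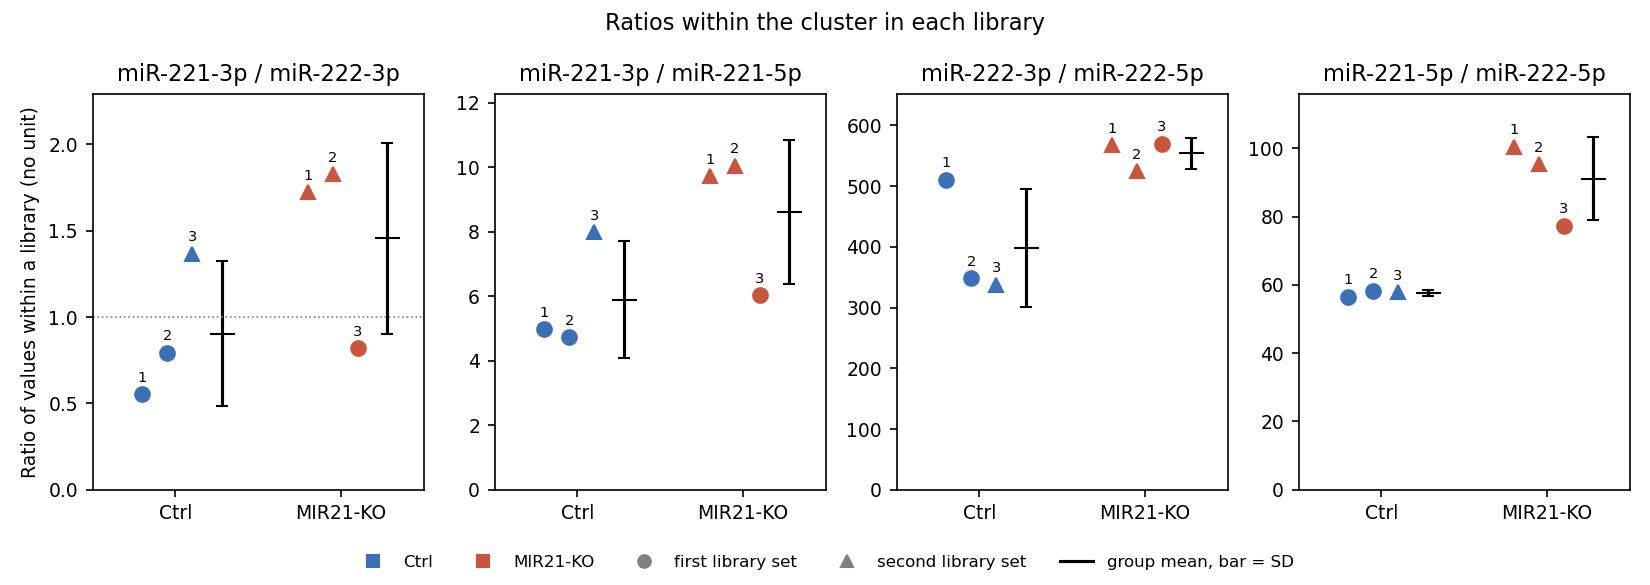
Ratios of values within a library (no unit, linear axes from 0) for the guide strands, for the strands of miR-221, for the strands of miR-222 and for the passenger strands, in Ctrl (blue) and MIR21-KO (red), with circles for the first and triangles for the second library set, and the group mean with its SD. The ratios of the guide strands and of the miR-221 strands are higher in triangles than in circles within each group, whereas that of the passenger strands is 56.6 to 58.3 in all Ctrl libraries and 77.3 to 100.5 in MIR21-KO.

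miR-221-3p and miR-222-3p were not each other's nearest match in pattern. Likeness was measured as the root mean square difference of log2(value + 1) over the 6 libraries, each profile centred on its own mean, among the 332 miRNAs whose mean value reached 10. The nearest to miR-221-3p were miR-136-5p (0.127), miR-1254 (0.129) and miR-651-5p (0.145), and the nearest to miR-222-3p were miR-486-3p (0.215), miR-27a-3p (0.236) and the cluster's own miR-221-5p (0.256). miR-222-3p stood at place 138 in likeness to miR-221-3p, at 0.637 against a median of 0.738 over all. miR-221-5p, the partner strand of miR-221-3p, stood at place 58 (0.435). The nearest to miR-221-5p were miR-1307-3p (0.113), miR-365a-5p (0.125) and miR-30d-3p (0.179), with miR-222-3p at place 13. miR-222-5p had a mean value under 10 and was left out. The profiles span both library sets, between which miR-221-3p and miR-222-3p differed in opposite directions. How often strands of other clusters are each other's nearest match is not given here.

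In the lists of miRNAs with related roles, neither limma nor edgeR nor DESeq2 called a member after adjustment. At an unadjusted p under 0.05 limma held 1 member of the miR-200 family, miR-200b-3p, and 1 of the CLCN5 cluster, miR-500b-3p. It held 0 of the other lists described here. DESeq2 also held miR-451a, and its share of all miRNAs under this p is not given here. Of 4 miRNAs known as controlled by the receptors EGFR or MET beside the cluster, 0 passed in either direction, with a median log2 change of 0.68 beside 0.24 over all miRNAs tested. Their most abundant, miR-103a-3p, had a mean of 2967 in Ctrl and 5479 in MIR21-KO (log2 change 0.93, adjusted p = 0.538 from limma), and miR-30c-5p had 1730 and 2152 (0.58, adjusted p = 0.734). The list of these 4 miRNAs does not part those raised by the receptors from those lowered, so its median gives no state of the receptors. Of 7 miRNAs known to repress the kinase inhibitors CDKN1A or CDKN1C, 0 passed and the median was 0.18, with miR-25-3p at -0.09 and miR-93-5p at 0.42. Of the 5 members of the miR-200 family, 0 passed and the median was -0.34, with miR-200b-3p at -1.10 (adjusted p = 0.431 from limma) and miR-200a-3p at -0.17. Only 1 of the family had a positive change, miR-200c-3p at 0.60. Of 16 strands of the CLCN5 cluster, also on the short arm of chromosome X, 14 were tested, 0 passed and the median was 0.23, with miR-532-5p at -0.82 and miR-500a-3p at 0.69. miR-500a and miR-500b are near copies, so their reads are uncertain. Of the markers of other cell types 0 passed, with miR-143-3p at 0.46 and miR-122-5p at -1.27.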

How the data were processed

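Small RNA of 3 Ctrl and 3 MIR21-KO libraries was analysed. The submitters' processing notes list cutadapt 1.14, Bowtie2 2.3.2, SAMtools 1.5, featureCounts 1.5.3, edgeR 3.18.1 and hg38, with no role or order; how reads fitting several loci were counted is not given in the sources used here. The authors deposited 1 signal per miRNA row and library, the reads divided by 1 factor (TMM), beside columns of their own comparison (fold change, p, FDR), none of which was used. 100% of the values were whole multiples of 1 read (tolerance 0.001), which gave the reads. TMM removes any change shared by most miRNAs. Rows of one name were summed (2813 rows, 2588 miRNAs).

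limma 3.58.1 (R 4.3.3, trend) was run on log2(value + 1) for the 607 miRNAs that reached 1 or more in 3 or more libraries, and on log2((3p + 1)/(5p + 1)) over 152 names, with Benjamini-Hochberg adjustment over all. The pseudocount understates changes of scarce miRNAs. edgeR 4.0.16 (quasi-likelihood) and DESeq2 1.42.0 on the reads were alternatives, as were other pseudocounts, filters, scalings, a replicate block, a library set term and libraries left out. Fits were tested on simulated counts. Named miRNAs are the members, miR-21, the 3 nearest in pattern to each member, and from each list those called and the 2 most abundant. The other markers of other cell types, miR-141-3p, miR-200c-3p and miR-500b-3p were named after their values were seen. 1 further list is not reported here. Members, lists and tests were chosen with earlier results of these data known. Replicates of a group differed beyond sampling noise (chi-square per degree of freedom at least 130.4). Sequences and positions are from RefSeq (GRCh38.p14) and GENCODE 29.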

Additional observations from a re-analysis of the deposited data

How the results depend on the processing

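The 4 members stayed short of an adjusted p of 0.05 with edgeR, DESeq2 and every alternative run except scaling to the total of all miRNAs, where miR-221-3p (log2 change 1.66) and miR-221-5p (1.11) passed and miR-222-3p (0.96) and miR-222-5p (0.41) turned positive without passing. This follows from its construction, since miR-21-5p dominates the Ctrl reads. With median centring miR-221-3p was at -0.020. The median of all tested miRNAs was -0.024 with median centring and -0.025 with DESeq2. With the library set term the changes were 0.10, -0.21, -0.24 and -0.72 for miR-221-3p, miR-221-5p, miR-222-3p and miR-222-5p (adjusted p from 0.110 to 0.799, limma). The number of miRNAs higher was 0, and 212 with scaling to the total (7 lower), 4 with DESeq2 and 71 with the set term. The number lower, 5, became 8 with edgeR, 19 with DESeq2, 39 with the set term, 3 with a pseudocount of 10, 2 with the replicate block and 2 when calls needed an adjusted p under 0.01. For these shifts, other than that of total scaling, the cause was not tested.

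Leaving out single libraries, the log2 changes ran from 0.07 to 0.46 for miR-221-3p, from -0.34 to -0.15 for miR-221-5p, from -0.63 to -0.10 for miR-222-3p and from -0.99 to -0.69 for miR-222-5p. The number lower ran from 1 (without Ctrl replicate 1 or 2) to 3, and the number of 3p over 5p ratios called from 0 to 1. That number was also 1 with a pseudocount of 10 and with the set term. The difference in the share of the 4 members, -0.41 percentage points, was 0.88 over all reads. That of the log2 sum of the guide strands ran from -0.25 to 0.12 with libraries left out, and was 1.32 with scaling to the total, -0.36 with median centring, -0.32 over reads other than miR-21 and -0.22 with factors from the median of ratios. The change in the 3p over 5p ratio of miR-222, 0.40, was 0.0073 with a pseudocount of 10. That of the log2 ratio of the guide strands ran from 0.40 (without Ctrl replicate 1) to 1.07 (without MIR21-KO replicate 3), and that of the passenger strands from 0.58 to 0.77.

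Same-numbered libraries deviated in opposite directions from their group means (correlations across miRNAs from -0.88 to -0.60). They always fell in different library sets, so this check cannot tell whether replicate numbers pair the libraries. With the replicate block the log2 change of miR-221-3p was 0.28 and that of miR-222-3p -0.43 (adjusted p = 0.950 for both from limma), and no member was called. miR-222-5p had the fewest reads of the members, 41 to 86 per library, but its standard error in limma (0.39) was below that of miR-222-3p (0.43).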
